A study of Mus musculus with 10 samples.

Results

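The 10 genes described here, Asns, Atf4, Ddit3, Trib3, Chac1, Ddit4, Sesn2, Xbp1, Hspa5 and Derl2, belong to the cell's responses to amino acid shortage and to unfolded protein in the endoplasmic reticulum (ER). They were chosen from 19938 genes with a probe set that names a single gene, with an earlier analysis of these arrays known in which Asns was higher and Derl2 lower after fMLP. The difference between fMLP and unstimulated cells is therefore given for them as a description with no test. Each of the 10 had 1 such probe set, and all 10 were among the 14070 genes that passed the filter on low signal (a log2 signal over 8.18, the overall median, on at least 2 arrays). Derl2 passed through 6 arrays, and the other 9 members lay above the filter on all 10.

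RNA was taken from neutrophil-enriched bone marrow cells of female C57bl/6 mice aged 10 weeks, collected from the interface of 62% and 81% Percoll, and hybridised to Affymetrix Mouse Gene ST arrays. The groups were Lcn2 knockout cells after fMLP (2 arrays), wild type cells after fMLP (2 arrays), unstimulated Lcn2 knockout cells (3 arrays) and unstimulated wild type cells (3 arrays). fMLP, a formylated peptide of the kind bacteria release, attracts and activates neutrophils through formyl peptide receptors, and was given at 10 µM for 20 minutes at 37 °C. The series asks what lipocalin 2, an iron-carrier-binding granule protein encoded by Lcn2, contributes to resting and stimulated neutrophils. The labels describe neither the knockout allele nor how the unstimulated cells were kept. They do not say whether replicates were separate animals, so p-values measure only the spread between these samples, which may be technical.

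Shortage of amino acids activates the kinase GCN2, and unfolded protein in the ER activates the kinase PERK. Both phosphorylate the translation factor eIF2, which slows most protein synthesis but raises synthesis of the transcription factor ATF4, and ATF4 then raises genes for amino acid supply and stress control. In the ER the sensors IRE1 and ATF6 act beside PERK: IRE1 splices Xbp1 mRNA, and the XBP1 and ATF6 proteins raise chaperones and degradation factors. These arrays measure RNA abundance, not splicing, phosphorylation or protein.

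The arrays fell into 2 sets by the spread of their values. Set 1 held replicates 1 and 2 of both unstimulated groups, with an interquartile range of 1.64 to 1.68 on the log2 scale. Set 2 held the 4 fMLP arrays and replicate 3 of both unstimulated groups, with a range of 2.47 to 2.59. No fMLP array lay in set 1, so the set was a term of the fit, and the fMLP difference averaged over genotype is the mean of the 4 fMLP arrays minus the mean of the 2 unstimulated arrays of set 2. Lcn2 averaged 9.01 ± 0.84 on the knockout arrays and 14.14 ± 0.02 on the wild type arrays after fMLP (SD, n = 2 each), and 8.55 ± 0.58 on the knockout arrays and 13.94 ± 0.07 on the wild type arrays without it (SD, n = 3 each). The unstimulated arrays of set 2 went against the label female. Xist, which is transcribed from the inactive X chromosome, had 9.83 to 11.12 on the fMLP arrays, against 6.88 to 6.94 in the unstimulated cells of set 2 and 7.73 to 7.82 in those of set 1. Eif2s3y, a gene of the Y chromosome, had 5.36 to 6.48 on the fMLP arrays, against 9.59 to 9.83 in the unstimulated cells of set 2 and 6.77 to 7.22 in those of set 1. On the arrays of set 1 both genes lay below the filter on low signal (8.18), so the sex is not clear there. Stimulation and the sex of the donors cannot be told apart in this comparison. Replicate 2 of the knockout cells after fMLP carried neuron signal: the summed level of 8 neuron markers was 14.63 on this array, 10.42 to 10.53 on the other fMLP arrays and 10.56 to 10.65 on the unstimulated arrays of set 2. Several of the values that it moves are also given without it.

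Promoter windows of 4 members hold the letters of textbook elements of these responses. The 3 whose match lies upstream of the start are shown, and between them they hold both elements that were searched for. In the windows from RefSeq (mouse build GRCm38.p6), which run over 300 bases with 250 before the gene's start, all 10 members were matched, with 11 windows. The C/EBP-ATF response element (CARE), the DNA element that ATF4 binds together with C/EBP partners, was searched on both strands as TGATGNAAN and was found for Asns, Chac1 and Trib3 (in Trib3 at 14 to 22 bases past the start, inside the gene), and in 3.95% of all 32851 windows. The ER stress element (ERSE), searched on both strands as CCAAT, any 9 bases and CCACG, was found for Hspa5, and in 0.119% of all windows. A match is a description of letters and not of a bound site. The 80 bases upstream of Asns (chr6:7693210-7693289, minus strand), and 80 bases upstream of Chac1 (chr2:119351013-119351092, plus strand) and of Hspa5 (chr2:34771990-34772069, plus strand) read, with the element in capitals and with that of Chac1 running on the opposite strand:
Asns: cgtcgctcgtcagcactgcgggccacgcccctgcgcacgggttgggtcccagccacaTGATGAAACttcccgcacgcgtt
Chac1: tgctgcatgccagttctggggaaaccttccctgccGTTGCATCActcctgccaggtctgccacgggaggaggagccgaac
Hspa5: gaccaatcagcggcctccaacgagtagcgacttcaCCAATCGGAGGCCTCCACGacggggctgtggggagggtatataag

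After fMLP the transcription factor genes Atf4 and Ddit3 were at higher signal than on the unstimulated arrays of set 2, the amino acid gene Asns stood higher by the most among the 10, and Derl2, an ER degradation gene, stood lower by the most. Over the 10 genes the median difference was 0.33 on the log2 scale, with 7 higher and 3 lower. Over all 14070 tested genes the median was -0.02, with 45.8% higher and 54.2% lower. The median of the 10 was 0.35 without replicate 2 of the knockout cells. In set 2 the fMLP arrays lay wholly above the unstimulated arrays for 6 members (Asns, Atf4, Ddit3, Chac1, Sesn2 and Xbp1), as they did for 11.9% of all tested genes. They lay wholly below for Derl2, as they did for 20.2% of all tested genes, and the groups overlapped for Trib3, Ddit4 and Hspa5. Without replicate 2 of the knockout cells the same 6 lay wholly above (26.8% of all tested genes), and Derl2 and Trib3 wholly below (28.7%). The rule that chose the members used this comparison, so nothing is read from these shares.

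Atf4 encodes the transcription factor that is translated when eIF2 is phosphorylated. Its log2 signal was 10.26 and 10.38 in knockout cells and 10.27 and 10.36 in wild type cells after fMLP, against 9.99 in knockout and 9.90 in wild type cells on the unstimulated arrays of set 2. The 4 fMLP arrays lay close together, and all above both unstimulated arrays of the set. The fMLP difference was 0.37 (SE 0.14, 1.30-fold). Ddit3 encodes CHOP, a C/EBP family factor induced by ATF4 and known for its part in cell death under lasting ER stress. Its signal was 9.97 and 9.41 in knockout cells and 9.99 and 10.14 in wild type cells after fMLP, against 9.32 in knockout and 9.31 in wild type cells on the unstimulated arrays of set 2. Replicate 2 of the knockout cells was the lowest of the fMLP arrays and exceeded the higher unstimulated array by 0.10, while the other 3 exceeded it by at least 0.65. The difference was 0.56 (SE 0.15, 1.48-fold), and 0.70 (SE 0.10) without replicate 2 of the knockout cells.

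Asns (Entrez gene 27053, chr6:7675165-7693209 in GRCm38.p6) encodes asparagine synthetase, which makes asparagine from aspartate and glutamine. Its signal was 11.18 and 11.12 in knockout cells and 11.42 and 11.40 in wild type cells after fMLP, against 10.52 in both genotypes on the unstimulated arrays of set 2. Each fMLP array was at least 0.60 above the unstimulated array of its own genotype, and the wild type arrays were above the knockout arrays. The difference was 0.76 (SE 0.09, 1.69-fold) and was 0.77 (SE 0.09) without replicate 2 of the knockout cells. Chac1 encodes an enzyme that degrades glutathione and is induced through ATF4 and CHOP. Its signal was 10.06 and 9.78 in knockout cells and 9.96 and 10.32 in wild type cells after fMLP, against 9.65 in knockout and 9.74 in wild type cells on the unstimulated arrays of set 2. The lowest fMLP array lay just above the higher unstimulated array of the set. The difference was 0.33 (SE 0.15, 1.26-fold), and 0.40 without replicate 2 of the knockout cells.

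Sesn2 and Ddit4 encode inhibitors of the growth kinase mTORC1, and Sesn2 protein is also a leucine sensor. Sesn2 signal was 9.86 and 9.78 in knockout cells and 9.97 and 10.10 in wild type cells after fMLP, against 9.39 in knockout and 9.64 in wild type cells on the unstimulated arrays of set 2. All 4 fMLP arrays were above both, and the difference was 0.41 (SE 0.11, 1.33-fold). Ddit4 signal was 9.28 and 9.24 in knockout cells and 9.02 and 9.44 in wild type cells after fMLP, against 9.10 in knockout and 9.03 in wild type cells on the unstimulated arrays of set 2. The wild type fMLP arrays lay on either side of the unstimulated ones, and the difference was 0.18 (SE 0.14). It was 0.02 without the unstimulated wild type array of set 2 and 0.34 without the knockout one, and 0.28 and 0.08 without replicate 1 and replicate 2 of the wild type cells after fMLP. Trib3 encodes a pseudokinase that is induced by CHOP and dampens ATF4 activity. Its signal was 8.47 and 8.52 in knockout cells and 8.36 and 8.43 in wild type cells after fMLP, against 8.48 in knockout and 8.55 in wild type cells on the unstimulated arrays of set 2. The ranges overlapped, and the difference was -0.07 (SE 0.11).

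The 3 ER genes did not share a direction. Xbp1 encodes the transcription factor whose mRNA IRE1 splices. Its signal was 11.89 and 11.73 in knockout cells and 11.86 and 11.96 in wild type cells after fMLP, against 11.51 in knockout and 11.56 in wild type cells on the unstimulated arrays of set 2. All 4 fMLP arrays were above both, and the difference was 0.32 (SE 0.11, 1.25-fold). Hspa5 encodes BiP, the main ER chaperone and a restraint on the 3 sensors. Its signal was 11.38 and 11.23 in knockout cells and 11.44 and 11.52 in wild type cells after fMLP, against 11.58 in knockout and 11.49 in wild type cells on the unstimulated arrays of set 2. The ranges overlapped, and the difference was -0.14 (SE 0.12). Without the unstimulated knockout array of set 2 it was 0.08, and without the wild type one -0.36.

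Derl2 (Entrez gene 116891, chr11:71007440-71019841 in GRCm38.p6) encodes a membrane protein of the channel through which misfolded proteins leave the ER for degradation. Its signal was 8.74 on both knockout arrays and 8.95 and 8.86 on the wild type arrays after fMLP, against 9.79 in knockout and 10.05 in wild type cells on the unstimulated arrays of set 2. Each fMLP array was at least 1.05 below the unstimulated array of its own genotype, and the groups did not overlap. The difference was -1.10 (SE 0.11, a fold of 0.467), with replicate 2 of the knockout cells and without it. The sign depended on the unstimulated arrays used. Derl2 signal on set 1 was 7.44 and 7.22 in knockout cells and 7.36 and 7.50 in wild type cells. These values lay below every fMLP array and below the filter on low signal (8.18). With no term for the array set the difference was 0.60 (SE 0.67).

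**Figure D1:**
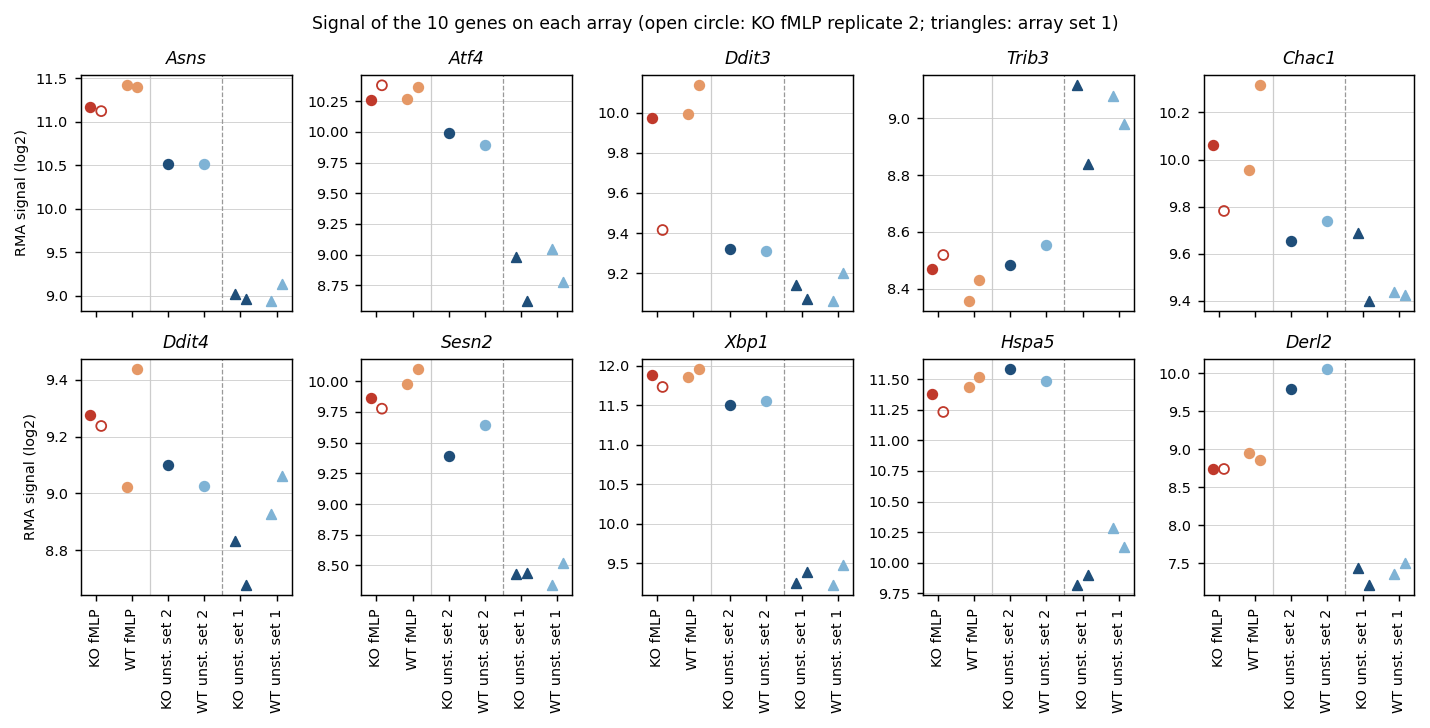
Log2 RMA signal of each of the 10 genes (vertical axis, scaled per gene) on every array, in the order knockout and wild type after fMLP, then unstimulated set 2, then unstimulated set 1 (triangles, right of the dashed line); the open circle is replicate 2 of the knockout cells after fMLP. Asns sits at 11.12 to 11.42 after fMLP and at 10.52 on both unstimulated arrays of that set. Derl2 sits at 8.74 to 8.95 after fMLP and at 9.79 to 10.05 on both unstimulated arrays of that set.

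**Figure D2:**
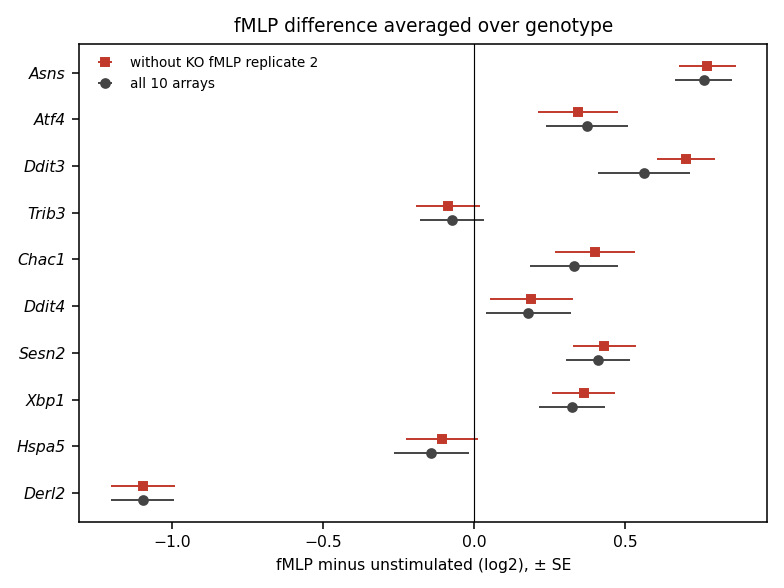
Difference in log2 signal between fMLP and unstimulated cells, averaged over genotype, with its standard error, for each gene (rows), in the fit without replicate 2 of the knockout cells after fMLP (squares) and of all 10 arrays (circles). The differences run from -1.10 for Derl2 to 0.76 for Asns over all 10 arrays, and Ddit3 differs most between the fits, at 0.70 and 0.56.

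The array sets separated most of these genes more widely than fMLP did. Between the unstimulated arrays, set 2 was above set 1 by 2.54 for Derl2, 2.20 for Xbp1, 1.51 for Asns, 1.50 for Hspa5, 1.09 for Atf4 and 1.08 for Sesn2. The gap was 0.21 for Chac1, 0.20 for Ddit3 and 0.19 for Ddit4, and Trib3 was lower on set 2, by -0.48. For Ddit3 and Chac1 the fMLP difference exceeded the gap between the sets. All 6 members whose fMLP arrays lay above the unstimulated arrays of set 2 also had them above those of set 1. This was fixed in advance, since for each of them the higher unstimulated array of set 2 exceeded every array of set 1. The share of all tested genes was not counted, and nothing is read from this. With no term for the array set the median fMLP difference of the 10 genes was 0.78, with Hspa5 at 0.86 and Asns at 1.77.

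Genes with a profile most like that of Asns were sought among 13320 tested genes by the root mean square difference of their array-by-array deviations over the 10 arrays. The nearest were Napa (0.103), Ndel1 (0.148), Dnajb1 (0.154), Rmnd5b (0.154) and Glul (0.154), with fMLP differences of 0.81, 0.65, 0.40, 0.48 and 0.54. Napa encodes a vesicle fusion factor, Dnajb1 a cytosolic chaperone partner and Glul glutamine synthetase, whose product is a substrate of asparagine synthetase. For Derl2 the nearest were Marchf5 (0.167), Fundc1 (0.187), Tm9sf3 (0.192), Uchl5 (0.194) and Luc7l3 (0.204), with fMLP differences of -0.73, -0.81, -0.95, -0.71 and -0.84. Marchf5 and Fundc1 encode proteins of the mitochondrial outer membrane. The gap between the array sets is part of these profiles and was 1.38 to 1.84 for the neighbours of Asns and 2.18 to 2.66 for those of Derl2.

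Markers of other cells also had different levels in set 2 with and without fMLP. Of all tested genes 54.2% were lower and 45.8% higher after fMLP. The markers Il5ra, Fcer1a, Ms4a2 and Klrb1c, which are counted here, lay above the filter on low signal on 0 arrays, and Ncr1 and Prdm1 on 1. Of the eosinophil markers 7 of 7 were lower after fMLP (summed level 10.82 to 11.69 on the fMLP arrays, 13.73 to 13.79 on the unstimulated arrays of set 2), as were 6 of 6 monocyte markers (11.02 to 11.96 on the fMLP arrays, 12.88 to 13.43 on the unstimulated arrays) and 5 of 5 early myeloid markers (12.35 to 13.71 on the fMLP arrays, 14.17 to 14.20 on the unstimulated arrays). All 6 T and NK cell markers were higher (10.88 to 11.89 on the fMLP arrays, 10.39 to 10.58 on the unstimulated arrays), as were 6 of 7 B cell markers and 2 of 3 erythroid markers, while 5 of 6 basophil and mast cell markers were lower. These counts were the same without replicate 2 of the knockout cells, except that 3 of 3 erythroid markers were higher. Of 8 markers of plasma cells, which are known to be rich in Xbp1 and ER proteins, 5 were higher and 3 lower, with a median difference of 0.06 (0.07 without replicate 2 of the knockout cells). The differences of single plasma cell markers ran from -2.34 for Jchain to 0.96 for Irf4. The 11 markers of neutrophils, the labelled cell type, had a median difference of -0.16, with 9 lower and 2 higher, and summed to 16.75 to 17.20 on the fMLP arrays, against 17.17 to 17.20 on the unstimulated ones. Without replicate 2 of the knockout cells, the array at 16.75, the median was -0.02, with 7 lower and 4 higher, and the lowest sum 17.10. In such bulk RNA fewer cells of a type and less RNA per cell cannot be told apart. The part of these markers in the differences of the 10 genes was not tested.

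Around the 10 members, 185 genes of the same pathways were drawn up in 11 lists, of which 174 had a probe set and 167 were tested in the fMLP comparison. In the limma fit of all 10 arrays 1 of the 167 rose, 0 fell and 166 did not pass (Benjamini-Hochberg adjusted p below 0.05 over all tested genes), against 0.341% of all 14070 genes called. The gene was Atf3, a stress-response factor that is itself an ATF4 target. Its signal was 11.31 and 10.74 in knockout cells and 11.01 and 12.04 in wild type cells after fMLP, against 8.79 in knockout and 9.11 in wild type cells on the unstimulated arrays of set 2. It rose by 2.32 on the log2 scale (SE 0.29, adjusted p = 0.0205), above both unstimulated arrays on 4 of 4 fMLP arrays. In 7 of 20 alternatives it did not pass, among them set 2 alone (adjusted p = 0.750) and the fits without any 1 of the 6 unstimulated arrays (adjusted p = 0.0668 to 0.581).

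Without replicate 2 of the knockout cells after fMLP, 21 of the 167 pathway genes rose and 10 fell, which is 18.6% against 10.1% of all tested genes (6.36% rose and 3.79% fell). Their median difference was 0.05, and that of all tested genes -0.01. The median SD about the fit was 0.112, and 0.163 with all 10 arrays. Without replicate 2, 1 array stands for knockout cells after fMLP and is assumed to vary like the other groups. The count of calls, and each call named from this fit below, rests on that assumption. The count also grew, to 49, when replicate 1 of the knockout cells was left out instead, which is 29.3% against 28.8% of all tested genes in that fit. Among regulators of the integrated stress response 4 of 15 rose and 2 fell. Ppp1r15a, which encodes GADD34, the subunit that directs a phosphatase to eIF2, rose by 1.39 (SE 0.11), and Impact, an inhibitor of GCN2, rose by 1.22 (SE 0.17). Eif2b2 (0.58) and Eif2b1 (0.34), subunits of the exchange factor that recharges eIF2, rose too, while Eif2s2 (-0.53), a subunit of eIF2, and Eif2ak2 (-0.42), the kinase PKR, fell. With all 10 arrays Impact was at 1.16 (adjusted p = 0.0507) and Ppp1r15a at 1.18 (adjusted p = 0.0833). Some lists below had a share called near that of all tested genes in the fit without replicate 2 of the knockout cells. These were amino acid transporters, aminoacyl-tRNA synthetases, leucine and arginine sensing, ER chaperones and ER-associated degradation. Nothing is read from the number of calls in those lists.

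Among the partners and feedback genes of ATF4, 3 of 14 rose and 1 fell in the fit without that array. Atf3 rose by 2.46, and the Trib3 relatives Trib1 and Trib2 rose by 1.21 and 0.55, while Chac2, a relative of Chac1, fell by 0.76. Of 12 amino acid synthesis enzymes 4 rose and 1 fell. Shmt2 (0.74), which makes glycine from serine in mitochondria, Glul (0.50), Aldh18a1 (0.48), an enzyme of proline synthesis, and Got1 (0.45), which interconverts aspartate and glutamate, rose. Mthfd2 (-0.49), a mitochondrial folate enzyme, fell. Of 11 amino acid transporters Slc3a2, the heavy chain shared by several of them, rose by 0.96 (SE 0.16). Of 15 aminoacyl-tRNA synthetases, which charge tRNAs, Vars (0.73) and Yars (0.60) rose, and of 18 genes of leucine and arginine sensing Rragc (0.54) and the Sesn2 relative Sesn3 (0.42) rose.

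In the fit of all 10 arrays no gene of the ER lists passed. The calls named here come from the fit without replicate 2 of the knockout cells after fMLP. Of 11 sensors of unfolded protein and their processing factors 0 passed, in the fit without that array and in that of all 10 arrays, with 2 of 11 at an unadjusted p below 0.05 in the fit without it, against 24.2% of all tested genes. Of 22 ER chaperones and folding enzymes 1 rose (Txndc11, 0.50) and 1 fell (Pdia3, a disulfide isomerase, -0.42), and their median was -0.10. Of 24 genes of ER-associated degradation, the process Derl2 serves, Rnf5 (0.42) and Syvn1 (0.36), both ubiquitin ligases, rose, and Herpud2 (-0.39) fell. The Derl2 relatives Derl1 and Derl3 were at 0.12 and 0.10 and did not pass. Of 17 genes of ER translocation Srpr (0.70), a receptor subunit for the signal recognition particle, rose, and Sec11a (-0.57) and Sec11c (-0.56), of the signal peptidase, and Sec61b (-0.41), of the translocation channel, fell. Of 8 genes of cell death under ER stress Bcl2l11 (0.52), which encodes BIM, rose and Tmbim6 (-0.38) fell.

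**Figure D3:**
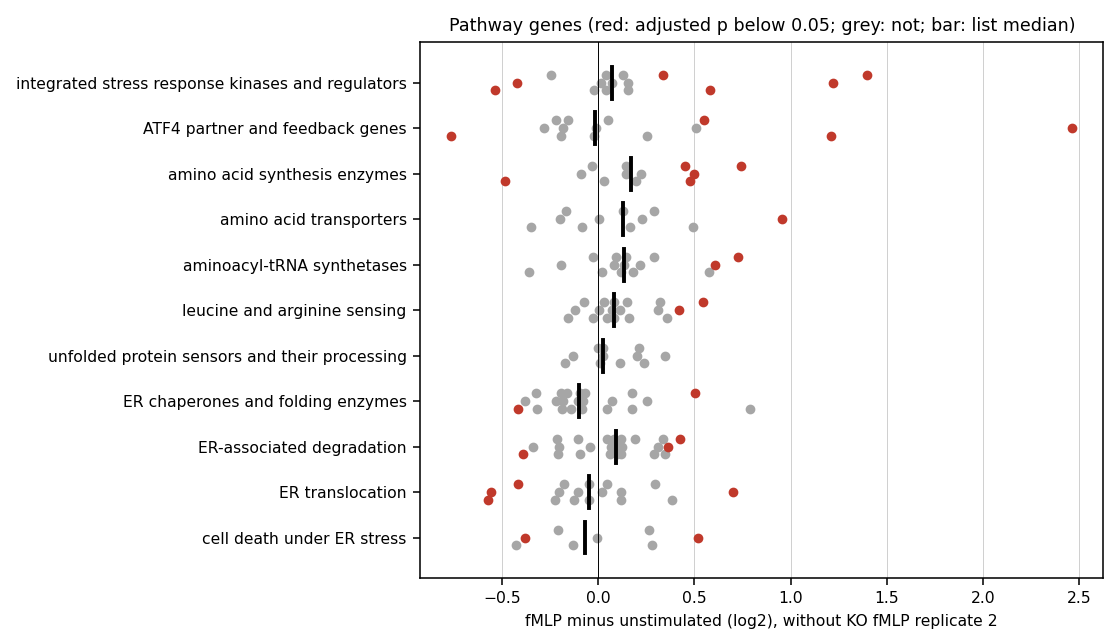
Difference in log2 signal between fMLP and unstimulated cells (horizontal axis) for the 167 tested pathway genes, which leave out the 10 members, by list, in the fit without replicate 2 of the knockout cells after fMLP; red points passed at an adjusted p below 0.05 and the bars are list medians. Atf3 stands farthest to the right at 2.46, and the chaperone list has a median of -0.10.

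The second question is whether loss of Lcn2 moved the 10 genes, a comparison that the choice of members did not use. No member passed in knockout against wild type cells after fMLP, unstimulated or averaged, nor when the fMLP responses of the genotypes were subtracted (limma, 0 of 10 in each). Lcn2 itself was the 1 gene called in each of the 3 knockout comparisons, 0.00711% of those tested, at -5.14 after fMLP (SE 0.41, adjusted p = 0.0189) and -5.39 without it (SE 0.33, adjusted p = 0.00266). No gene was called in the difference of responses (0.00%). At an unadjusted p below 0.05 the member counts were 1 after fMLP, 0 unstimulated, 0 averaged and 0 for the difference of responses, against 1182 (8.40%), 75 (0.533%), 773 (5.49%) and 258 (1.83%) of all genes.

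After fMLP the member with the smallest unadjusted p was Asns, lower in knockout cells by -0.26 (SE 0.11, adjusted p = 0.416), and by -0.24 (SE 0.12) without replicate 2 of the knockout cells. Ddit3 was at -0.37 (SE 0.18, adjusted p = 0.416), and at -0.09 (SE 0.13) without that array. Without replicate 1 of the knockout cells, which leaves replicate 2 alone for that group, Ddit3 passed at -0.65 after fMLP (adjusted p = 0.00195), as did 6401 of all 14070 tested genes (45.5%), and at -0.64 for the difference of responses (adjusted p = 0.00904), as did 4924. That lone array, the one with neuron signal, was assumed to vary like the other groups, so these calls describe 1 array. Over all 10 arrays Sesn2 was at -0.22, Chac1 at -0.21, Hspa5 at -0.17, Derl2 at -0.16 and Xbp1 at -0.10. Trib3 was at 0.10, Ddit4 at 0.03 and Atf4 at 0.01, and the standard errors of the 10 genes were 0.11 to 0.18. Without replicate 2 of the knockout cells Sesn2 was at -0.17, Chac1 at -0.07, Hspa5 at -0.10, Derl2 at -0.16 and Xbp1 at -0.03. Trib3 was then at 0.07, Ddit4 at 0.05 and Atf4 at -0.05. Both knockout arrays lay below both wild type arrays for 5 members (Asns, Ddit3, Sesn2, Hspa5 and Derl2), as for 26.0% of all tested genes, and above them for Trib3, as for 17.3%. The median over the 10 was -0.17, and -0.05 over all tested genes. Without replicate 2 of the knockout cells these medians were -0.08 and -0.0046.

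In unstimulated cells the knockout differences of the 10 genes ran from -0.20 for Hspa5 to 0.05 for Chac1, with standard errors of 0.09 to 0.14 and adjusted p = 1 for each. Their median was -0.05, and 0.01 over all tested genes. Hspa5, the BiP gene, was at 9.82, 9.90 and 11.58 in knockout cells and at 10.28, 10.13 and 11.49 in wild type cells (replicates 1 to 3). The knockout array was the lower of its pair by number in set 1, by -0.46 and -0.23, and the higher in set 2, by 0.09. Hspa5 lies on chromosome 2, as Lcn2 does, 2.39 Mb and 33 protein-coding genes away. Chac1 and Trib3 are also on chromosome 2, 752 and 1072 protein-coding genes away. Of the 167 pathway genes, 0 passed in any knockout comparison. At an unadjusted p below 0.05 there were 15 after fMLP (8.98%, against 8.40% of all tested genes), 1 unstimulated (0.599%, against 0.533%) and 14 averaged (8.38%, against 5.49%). Without replicate 2 of the knockout cells after fMLP, 1 array stands for that group, so no such counts are given for that fit. The differences shrank in it. The median of the 167 genes was -0.13 after fMLP with all 10 arrays and -0.02 without that array. Averaged over both conditions it was -0.08 and -0.03, against -0.02 and 0.003 over all tested genes.

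**Figure D4:**
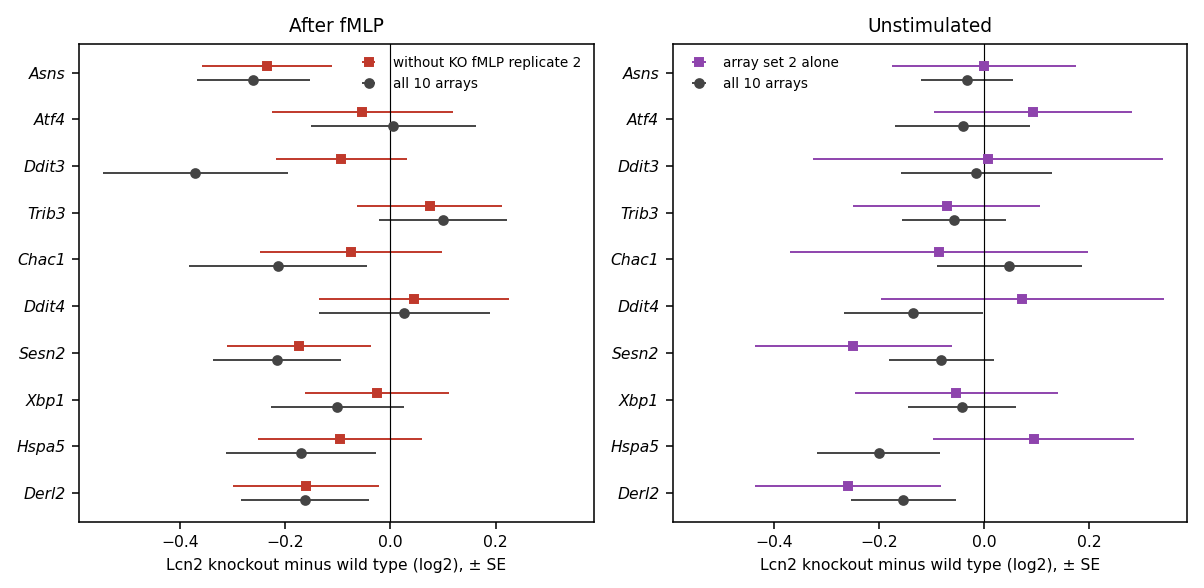
Difference in log2 signal between Lcn2 knockout and wild type cells, with its standard error, for each gene after fMLP (left, without replicate 2 of the knockout cells as squares) and unstimulated (right, array set 2 alone as squares), with the fit of all 10 arrays as circles. After fMLP Asns is at -0.26 and Ddit3 at -0.37 over all 10 arrays, and Ddit3 is at -0.09 without replicate 2 of the knockout cells.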

How the data were processed

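Per the submitters' processing notes, the authors used RMA and Affymetrix Expression Console. RMA subtracts background, equalises the value distributions of arrays processed together and summarises the probes of a probe set. The log base is not stated, and the deposited values were taken as log2 from their range. Whether the arrays were processed in 1 run is not given in the sources used here. Of 35556 probe sets, 21789 name 1 gene in the platform annotation, 1621 several and 12146 none. The probe set with the highest mean was used per gene, and genes with at least 2 arrays above the median of all values were tested.

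All 10 arrays were fitted in limma (version 3.58.1, with R 4.3.3) with 4 groups and the array set (5 residual degrees of freedom), two-sided, with Benjamini-Hochberg adjustment over 14070 genes and calls below 0.05. A difference is fMLP minus unstimulated, or knockout minus wild type. The fit was tested on simulated data. Precision is limited by the number of arrays, which have no read depth.

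The members, the pathway and marker lists and the tests were chosen with earlier results of these data known. The genes named were all members, up to 6 called pathway genes per list by smallest p (otherwise up to 3), in the fit of all 10 arrays or without replicate 2 of the knockout cells after fMLP, and for Asns and Derl2 the 5 nearest profiles. Derl1 and Derl3 were named after their values were seen. Same-numbered unstimulated arrays deviated together (r = 0.464 for replicates 1 and 2), and fMLP arrays hardly did (r = 0.0598). With 2 arrays per group the deviations of replicates 1 and 2 mirror each other, so each r is 1 comparison. Replicate 3 was not compared. The labels do not say that numbers pair samples. A term for replicate 3 could not be fitted beside the array set, since among the unstimulated arrays it is set 2. A term for replicate 2 could have been, and was left out of the main fit. The alternatives were no array set term, set 2 or set 1 alone, the replicate number as a block, median centring, quantile normalization, a stricter filter (above 8.83) or none, the mean over probe sets, weights per array, robust moderation with a variance trend and leaving out each array.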

Additional observations from a re-analysis of the deposited data

How the results depend on the processing

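Several alternatives left the fMLP differences of the 10 genes unchanged, since these rest on set 2 and on 1 probe set per gene. They were set 2 alone, the mean over probe sets, the variance trend, array weights and leaving out an array of set 1. With these included, the differences kept their direction in 175 of 180 values under the alternatives. The exceptions were Derl2 (0.60 with no array set term and 1.44 with the replicate block in place of the array set) and Hspa5 (0.86 and 1.36 in these fits, and 0.08 without the unstimulated knockout array of set 2). The median of the 10 was 0.33, 0.78 with no array set term, 1.40 with the replicate block, and 0.27 to 0.37 when 1 array was left out. The replicate block leaves the gap between the array sets within the fMLP difference.

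The count of pathway genes called after fMLP was 1 (1 rose, 0 fell) in the fit of all 10 arrays. It was 0 (0 rose) within array set 2, and 2 (2 rose) under quantile normalization, under median centring and with the mean over probe sets. It was 3 (3 rose) with the stricter filter and with a variance trend and robust moderation, 17 (9 rose, 8 fell) with array weights, and 148 (130 rose, 18 fell) with the replicate block. Leaving out 1 array gave 0 to 49 called, 0 to 25 that rose and 0 to 24 that fell. Over all genes the count was 48, 11758 with the replicate block, 10 with no array set term, 765 with array weights and 0 within array set 2 (886 there at an unadjusted p below 0.05). Leaving out 1 array gave 0 to 4055 over all genes, with 0 without either unstimulated array of set 2.

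Member calls in the knockout comparisons were 0 under every alternative, the replicate block included, except for 3 calls of Ddit3 without replicate 1 of the knockout cells after fMLP (0 to 3 when 1 array was left out), a fit in which 1 array stands for that group. With 2 arrays per fMLP group, 1 unstimulated array per genotype in set 2 and no fMLP array in set 1, the fMLP differences rest on few arrays.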
